A study of Mus musculus with 3 samples.

Results

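Resorption of bone and mineralised cartilage by osteoclasts needs acid to dissolve the mineral and enzymes to digest the matrix. The 8 genes described here, of 26970 genes in the deposited table, encode this machinery. They were chosen by name for that role, but with earlier results of these data known. They are *Ctsk*, *Acp5*, *Mmp9*, *Tcirg1*, *Atp6v0d2*, *Atp6v1c1*, *Clcn7* and *Ostm1*, and each matched 1 row of the table. RNA was sequenced from mandibular condyles, the cartilage-covered head of the lower jaw with its subchondral bone, of mice aged 4 months on the C57BL/6 background. There was 1 library from wild-type (WT) mice, 1 from mice heterozygous for a global knockout of *Dspp* (*Dspp*+/-) and 1 from homozygous knockout mice (*Dspp*-/-). *Dspp* encodes dentin sialophosphoprotein, a protein of the dentin and bone matrix, and the knockout allele is carried in every tissue, osteoclasts and teeth included. Per the methods, condyles of 3 animals were pooled for WT and for *Dspp*+/-, and the number of animals behind *Dspp*-/- is not given in the sources used here. With 1 value per gene and genotype there was no spread between animals to set a difference against, so no p-value is given, and every interval below covers counting error only. Whether a difference exceeds the variation between animals, and whether it belongs to the genotype or to the single library, cannot be told apart.

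In a resorbing osteoclast, a vacuolar-type proton pump (V-ATPase) in the ruffled border, the folded membrane facing the bone, acidifies the sealed space beneath the cell. A chloride and proton exchanger in the same membrane carries the balancing charge. Cathepsin K then cleaves type I collagen at acid pH, while the metalloproteinase MMP9 cleaves gelatin and other matrix proteins and tartrate-resistant acid phosphatase (TRAP) is the enzyme by which osteoclasts are stained. Loss of function of *TCIRG1*, *CLCN7* or *OSTM1* in humans causes osteopetrosis, in which osteoclasts form but resorb poorly, and loss of *CTSK* causes pycnodysostosis. In the condyle, osteoclasts remodel the subchondral bone and the zone where calcified cartilage meets it.

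Levels are given as FPKM, counts of sequenced fragments scaled to the exon length of the gene and to the depth of the library, so that genes of different length can be compared within a library. Where 3 values stand together without names, their order is WT, *Dspp*+/-, *Dspp*-/-. The depth recovered from the values was 20241576 fragments for WT, 23613622 for *Dspp*+/- and 22253160 for *Dspp*-/-. The 3 libraries differed from each other in much more than the resorption genes. Mitochondrially encoded genes held 25.0% of all FPKM (WT), 36.9% (*Dspp*+/-) and 37.3% (*Dspp*-/-). As shares of fragments, which are not divided by gene length, they held 9.60%, 16.6% and 16.2%. *Xist*, transcribed only in female cells, had 2 fragments (WT), 12084 (*Dspp*+/-) and 10563 (*Dspp*-/-), and the summed level of 4 Y-linked genes was 36.6, 19.0 and 25.9 FPKM, so the libraries differ in the sex of the animals behind them. Its part in the values below was not tested. The tissue label was checked against markers. Bone markers such as *Col1a1* (6675 FPKM in WT), cartilage markers and all 8 osteoclast markers were present in every library, with the exception of *Matn1*, a cartilage matrix gene listed at 0.05, 0 and 0.07 FPKM. Skeletal muscle, blood and neutrophil genes were present as well, so the libraries hold more than the condyle's own cells. No value of *Dspp* itself is analysed here, and the genotypes are taken from the labels alone.

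All 8 resorption genes were lower in *Dspp*+/- than in WT, and 6 of 8 were lower in *Dspp*-/- than in WT. The share of all genes below WT was not counted, here or for the lists below. Over all genes compared, the median log2 ratio to WT was 0.06 in *Dspp*+/- and 0.01 in *Dspp*-/-, so lying below WT is common in itself. For *Ostm1* in *Dspp*+/- the difference was within counting error. The differences were not equal in size. The 3 secreted or lysosomal enzymes, *Ctsk*, *Acp5* and *Mmp9*, were between 0.323 and 0.433 of their WT level in *Dspp*+/-, the 3 pump genes between 0.534 and 0.780, and the chloride pair *Clcn7* and *Ostm1* at 0.650 and 0.914. The level in *Dspp*-/- was above that in *Dspp*+/- for 7 of the 8 genes, and *Clcn7* was the exception, but for *Tcirg1* and *Clcn7* the interval of that fold includes 1. In whole tissue, fewer osteoclasts, less of these RNAs per osteoclast and more RNA of other cells in the library cannot be told apart.

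**Figure D1:**
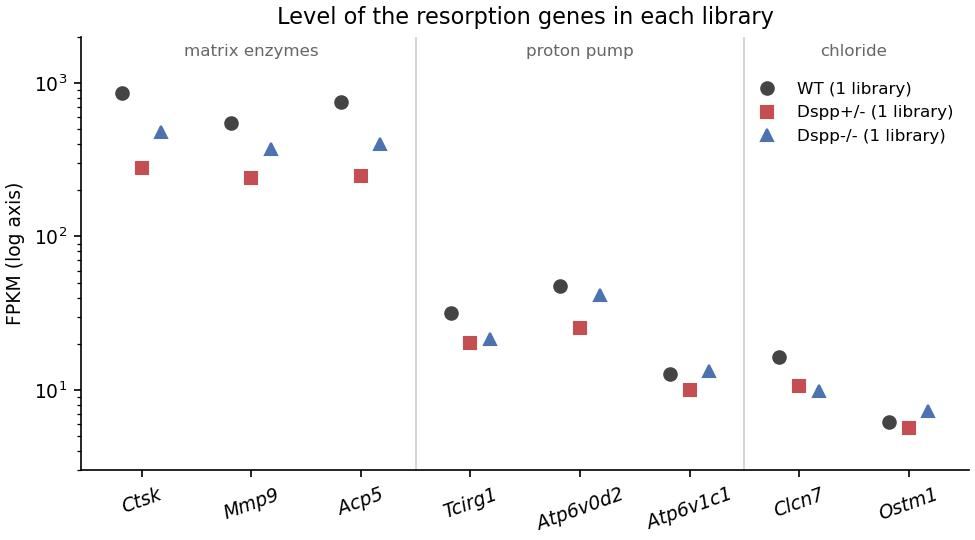
Level of each resorption gene in FPKM (log axis) in the single WT, *Dspp*+/- and *Dspp*-/- libraries, grouped by role. The 3 enzymes lie between 239 and 863 FPKM and the other 5 genes between 5.62 and 47.5 FPKM, and the *Dspp*+/- square is the lowest of the 3 for every gene but *Clcn7*.

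Where the genes stand in the genome, and what lies before their starts, is given first for those whose values turn the results. On mouse build GRCm38, *Ctsk* is at chr3:95499256-95509362 on the plus strand, *Acp5* at chr9:22126727-22135711 on the minus strand and *Mmp9* at chr2:164940780-164955850 on the plus strand. *Tcirg1* is at chr19:3896050-3907133 on the minus strand, *Atp6v0d2* at chr4:19876841-19922605 on the minus strand and *Atp6v1c1* at chr15:38661933-38692446 on the plus strand. *Clcn7* is at chr17:25133391-25162104 and *Ostm1* at chr10:42583822-42702459, both on the plus strand. The positions are those of the annotation used here, since few of those in the deposited table equal them and the build of that table is not known. Values cover all exons of a gene. Of the exon length of *Acp5*, 6.75% overlaps the opposite-strand gene *6530413G14Rik*, and of that of *Ostm1*, 5.69% overlaps *Gm15200*, whose reads this kit without strand marking cannot separate. No exon of any other member overlaps an exon of another gene, and no transcript of a member shares a 100-base stretch with a transcript of another gene.

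The 250 bases before a start site were available from RefSeq (GRCm38.p6) for 5 of the 8 genes, with 10 start sites in all. *Mmp9*, *Atp6v0d2* and *Atp6v1c1* had no entry. They were searched on both strands for letters that osteoclast factors are known to bind: TCACGTG and TCATGTG, boxes of the MITF and TFE family; TGANTCA, the AP-1 element of FOS and JUN; and GAGGAAG, a core of PU.1 elements. The 4 were chosen after the expression values were known. Shown are *Ctsk* and *Acp5*, which had similar folds in each comparison, and *Clcn7* and *Ostm1*, whose proteins form 1 transporter but whose values differed. They read 5′ to 3′ on the strand of the gene and end 1 base before the start site. Capitals mark a match, which is written as its reverse complement where it lies on the other strand. *Ctsk* is at chr3:95498960-95499209, plus strand. *Acp5* is at chr9:22130599-22130848, minus strand, the innermost of its 3 start sites, and 10 of its bases lie in an exon of another transcript of the gene. *Clcn7* is at chr17:25133141-25133390, plus strand, the outer of its start sites. *Ostm1* is at chr10:42678666-42678915, plus strand, which lies inside the span given for the gene above and not before that span's start.
Ctsk: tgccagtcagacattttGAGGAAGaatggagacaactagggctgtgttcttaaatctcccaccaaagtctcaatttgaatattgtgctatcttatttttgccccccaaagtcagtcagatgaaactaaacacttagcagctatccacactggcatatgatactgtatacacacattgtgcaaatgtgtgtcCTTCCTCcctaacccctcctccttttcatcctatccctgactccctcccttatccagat
Acp5: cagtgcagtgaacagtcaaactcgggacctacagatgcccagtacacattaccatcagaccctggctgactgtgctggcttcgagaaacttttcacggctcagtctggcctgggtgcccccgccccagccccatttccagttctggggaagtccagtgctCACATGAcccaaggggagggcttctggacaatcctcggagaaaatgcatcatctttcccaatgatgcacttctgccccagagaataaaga
Clcn7: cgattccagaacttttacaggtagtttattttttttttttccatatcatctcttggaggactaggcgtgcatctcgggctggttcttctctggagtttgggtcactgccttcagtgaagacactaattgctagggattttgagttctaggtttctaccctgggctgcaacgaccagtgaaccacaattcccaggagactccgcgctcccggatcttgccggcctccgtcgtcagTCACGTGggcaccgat
Ostm1: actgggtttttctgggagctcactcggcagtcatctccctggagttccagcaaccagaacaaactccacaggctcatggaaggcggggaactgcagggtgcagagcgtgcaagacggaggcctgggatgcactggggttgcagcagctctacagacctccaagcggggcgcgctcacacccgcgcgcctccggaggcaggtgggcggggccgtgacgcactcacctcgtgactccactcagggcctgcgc
The *Ctsk* window held GAGGAAG at 2 places, a sequence found in 10.6% of 32851 such windows over all genes. The *Acp5* window held TCATGTG once, 90 bases before the start, and so did the window of the second *Clcn7* start, 42 bases before it, against 3.25% of all windows. The *Clcn7* window shown held TCACGTG 16 bases before the start, against 3.13% of all windows. TGANTCA, in 6.75% of all windows, was in none of the 10. The windows of *Ostm1* and *Tcirg1*, and those of the other *Acp5* start sites, held none of the 4. The percentages are per window, and *Acp5* and *Clcn7* each had more than 1 window in which a match could fall. A match is a description of the letters and not a bound site.

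Among the enzymes, *Ctsk* encodes cathepsin K, the main collagenase of the osteoclast. Its level was 863 FPKM for WT, 279 for *Dspp*+/- and 481 for *Dspp*-/-, from 26404, 9955 and 16196 fragments. WT was high, *Dspp*+/- low and *Dspp*-/- between them, and the gene went from place 28 among all genes by FPKM to place 92 and place 52. The fold to WT was 0.323 in *Dspp*+/- (95% Clopper-Pearson counting interval 0.316 to 0.331) and 0.558 in *Dspp*-/- (0.547 to 0.569). Of the 13026 genes compared, 0.507% had a lower log2 ratio of *Dspp*+/- to WT than *Ctsk*.

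*Acp5* encodes TRAP. Its level was 756 FPKM in WT, as against 248 in *Dspp*+/- and 399 in *Dspp*-/-, from 31061, 11871 and 18020 fragments. The order of the libraries was that of *Ctsk*, and the fold was 0.328 in *Dspp*+/- (0.321 to 0.335) and 0.528 in *Dspp*-/- (0.518 to 0.538). The ratio of *Ctsk* to *Acp5* in FPKM was therefore much the same in each library, at 1.14 (WT), 1.13 (*Dspp*+/-) and 1.21 (*Dspp*-/-).

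*Mmp9*, the gelatinase of osteoclasts, is also stored in granules of neutrophils. Its level was 552 FPKM for WT, 239 for *Dspp*+/- and 371 for *Dspp*-/-. The order was again WT, *Dspp*-/-, *Dspp*+/-, with a smaller spread than for the other enzymes. The fold was 0.433 in *Dspp*+/- (0.425 to 0.440) and 0.673 in *Dspp*-/- (0.663 to 0.683), and the ratio of *Mmp9* to *Ctsk* was 0.639 in WT, as against 0.856 in *Dspp*+/- and 0.771 in *Dspp*-/-. Neutrophil markers went the other way. All 12 of 12 were at least 2-fold higher in *Dspp*+/- and in *Dspp*-/- than in WT, against 4.88% and 4.05% of all genes. Their summed level was 648, 2886 and 3863 FPKM, and none was at 0. Per unit of the neutrophil gene *S100a9*, *Mmp9* was 2.37 (WT), 0.261 (*Dspp*+/-) and 0.277 (*Dspp*-/-). The part of neutrophil RNA in the *Mmp9* values was not tested.

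Set against *Dspp*-/-, the enzymes in *Dspp*+/- were again the lower. The fold was 0.579 for *Ctsk* (0.565 to 0.594), 0.621 for *Acp5* (0.607 to 0.635) and 0.643 for *Mmp9* (0.632 to 0.655). The span over the 3 enzymes was narrower here than in *Dspp*+/- against WT.

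The V-ATPase has a membrane part, V0, and an ATP-splitting part, V1. *Tcirg1* encodes the a3 subunit of V0, through which protons pass in the ruffled border. Its level was 31.95 FPKM for WT, 20.4 for *Dspp*+/- and 21.4 for *Dspp*-/-. WT was high and the knockout libraries were alike, with folds of 0.637 (0.603 to 0.673) and 0.669 (0.632 to 0.707) to WT and of 0.953 (0.898 to 1.012) between *Dspp*+/- and *Dspp*-/-. That last interval includes 1.

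*Atp6v0d2* encodes the d2 subunit of V0, which osteoclasts use in the pump and in cell fusion. Its level was 47.5 FPKM in WT, as against 25.4 in *Dspp*+/- and 41.5 in *Dspp*-/-. Here *Dspp*-/- was near WT, at 0.875 of it (0.828 to 0.924), and *Dspp*+/- alone was low, at 0.534 (0.501 to 0.568) of WT and 0.610 (0.573 to 0.650) of *Dspp*-/-. The pump genes of the 2 membrane subunits thus stood in the same order, WT, *Dspp*-/-, *Dspp*+/-, but with different spacing. *Dspp*-/- lay near *Dspp*+/- for *Tcirg1* and near WT for *Atp6v0d2*. The ratio of *Tcirg1* to *Atp6v0d2* was 0.673 (WT), 0.803 (*Dspp*+/-) and 0.514 (*Dspp*-/-).

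*Atp6v1c1* encodes subunit C1 of V1, which joins the parts of the pump and is not restricted to osteoclasts. Its level was 12.8 FPKM for WT, 9.97 for *Dspp*+/- and 13.3 for *Dspp*-/-. WT and *Dspp*-/- could not be separated by counting error, at a fold of 1.04 (0.971 to 1.12), and *Dspp*+/- was at 0.780 of WT (0.723 to 0.841).

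*Clcn7* encodes the chloride and proton exchanger ClC-7 of lysosomes and the ruffled border. Its level was 16.4 FPKM in WT, as against 10.7 in *Dspp*+/- and 9.89 in *Dspp*-/-. It was the single gene of the 8 whose level was lowest in *Dspp*-/-, at 0.603 of WT (0.560 to 0.650) against 0.650 (0.605 to 0.698) in *Dspp*+/-. The fold between *Dspp*+/- and *Dspp*-/- was 1.08 with an interval from 0.995 to 1.17, so the order of those 2 libraries is within counting error.

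*Ostm1* encodes the partner protein that ClC-7 needs for its stability. Its level was the lowest of the 8, at 6.15 FPKM (WT), 5.62 (*Dspp*+/-) and 7.27 (*Dspp*-/-). The fold to WT was 0.914 in *Dspp*+/- (0.833 to 1.002) and 1.18 in *Dspp*-/- (1.08 to 1.29). The first interval includes 1, and the second lies above it. The ratio of *Clcn7* to *Ostm1* was 2.67 for WT, 1.90 for *Dspp*+/- and 1.36 for *Dspp*-/-.

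**Figure D2:**
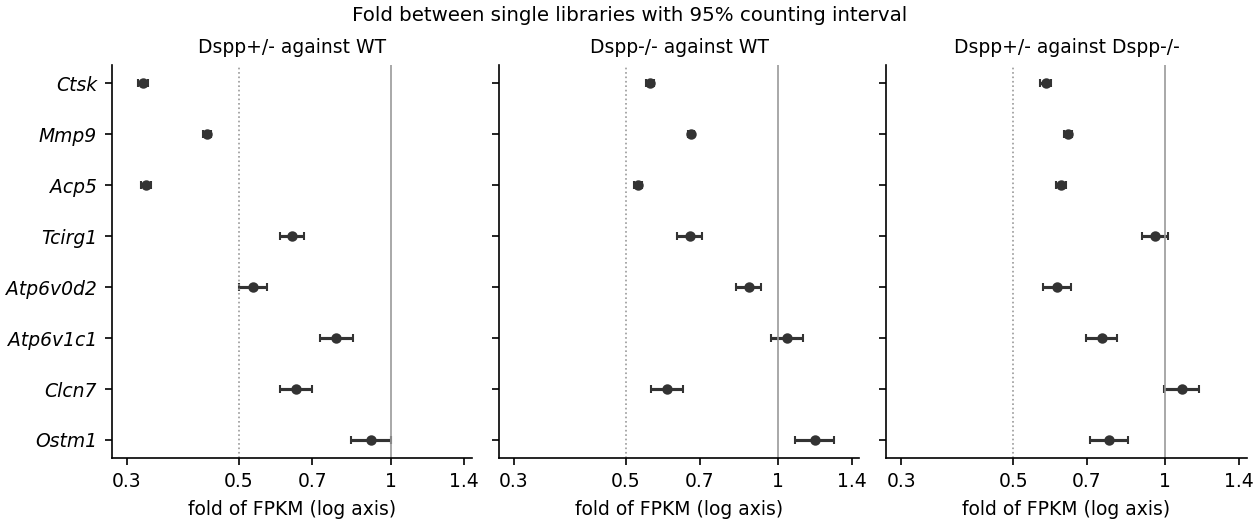
Fold of FPKM between single libraries (log axis) with the 95% counting interval, for *Dspp*+/- against WT, *Dspp*-/- against WT and *Dspp*+/- against *Dspp*-/-. The solid line is at 1 and the dotted line at 0.5. The enzymes lie left of the dotted line only in the first panel, *Clcn7* and *Tcirg1* lie near 1 in the last panel, and *Ostm1* lies right of 1 in the middle panel at 1.18.

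Counted over the group, *Ctsk*, *Acp5* and *Mmp9* were at least 2-fold lower in *Dspp*+/- than in WT, which is 3 of 8 genes, against 2.86% of the 13026 genes compared, those averaging 1 FPKM or more. The median log2 ratio of the 8 was -0.75 and that of all genes 0.06, on the log2(FPKM + 1) scale used for all calls. In *Dspp*-/- against WT, 0 of 8 were at least 2-fold lower, against 1.37% of all genes, and the median of the 8 was -0.57 against 0.01. In *Dspp*+/- against *Dspp*-/-, 0 of 8 passed, against 0.852%, and the median was -0.51 against 0.04. At 1.5-fold, 5 of 8 were lower in *Dspp*+/- than in WT against 8.95% of all genes, with *Atp6v0d2* and *Tcirg1* added. *Clcn7* was 1.54-fold lower in FPKM itself, but its log2 ratio of FPKM + 1, at -0.578, fell just short of 1.5-fold. The count was 3 of 8 in *Dspp*-/- against WT, with 8.21% of all genes, and 4 of 8 in *Dspp*+/- against *Dspp*-/-, with 3.39%. Both comparisons to WT share its library, so a high value there would lower both.

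The levels of the 8 genes also drew closer to each other. Their summed level was 2285 FPKM in WT, as against 837 in *Dspp*+/- and 1345 in *Dspp*-/-. The 3 enzymes held 94.98%, 91.4% and 93.1% of it. The highest gene, *Ctsk*, stood 140 times above the lowest, *Ostm1*, in WT, 49.6 times in *Dspp*+/- and 66.2 times in *Dspp*-/-. The order of the 8 by level was the same in WT and *Dspp*+/-, and in *Dspp*-/- *Atp6v1c1* and *Clcn7* changed places.

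Several of these genes have relatives in the same gene family. Except for subunit C, the share of a family's FPKM held by the resorption gene was lower in both knockout libraries than in WT. *Tcirg1* held 62.7% of the 4 subunit a genes in WT, 47.6% in *Dspp*+/- and 51.2% in *Dspp*-/-. *Atp6v0a1*, a broadly used form, was 8.97 FPKM (WT), 12.9 (*Dspp*+/-) and 11.0 (*Dspp*-/-), higher where *Tcirg1* was lower. *Atp6v0d2* held 60.8%, 45.4% and 55.8% of subunit d, while its broadly used relative *Atp6v0d1* was 30.6, 30.5 and 32.9 FPKM. Between WT and *Dspp*+/-, nearly all of the difference in the subunit d total was thus in the osteoclast form. As shares of fragments, which are not divided by gene length, *Tcirg1* held 53.9% in WT (95% Clopper-Pearson interval 52.5 to 55.2), 38.8% in *Dspp*+/- (37.5 to 40.1) and 42.2% in *Dspp*-/- (40.8 to 43.5), with no overlap of the intervals. *Atp6v0d2* held 70.2% (68.7 to 71.6), 55.7% (53.9 to 57.6) and 65.7% (64.1 to 67.2) of the fragments of subunit d.

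*Ctsk* held 72.2% of the FPKM of 9 cysteine cathepsins in WT, 52.1% in *Dspp*+/- and 65.0% in *Dspp*-/-. *Ctsb*, the next in level, was 128, 101 and 108 FPKM. As a share of fragments, *Ctsk* held 49.2% (48.7 to 49.6), 28.7% (28.2 to 29.1) and 39.6% (39.2 to 40.1). *Clcn7* held 47.0%, 35.1% and 33.5% of the FPKM of *Clcn3* to *Clcn7*, the intracellular exchangers, and was overtaken by *Clcn4*, at 11.8, 11.1 and 11.97 FPKM. By fragments it held 33.2% (31.9 to 34.5), 21.9% (20.9 to 23.0) and 21.04% (19.97 to 22.14), and *Clcn4* was ahead of it in WT already, with 2055 fragments against 1757. Subunit C showed no such shift. *Atp6v1c1* held at least 99.3% of it in each library, since *Atp6v1c2* had no more than 4 fragments.

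**Figure D3:**
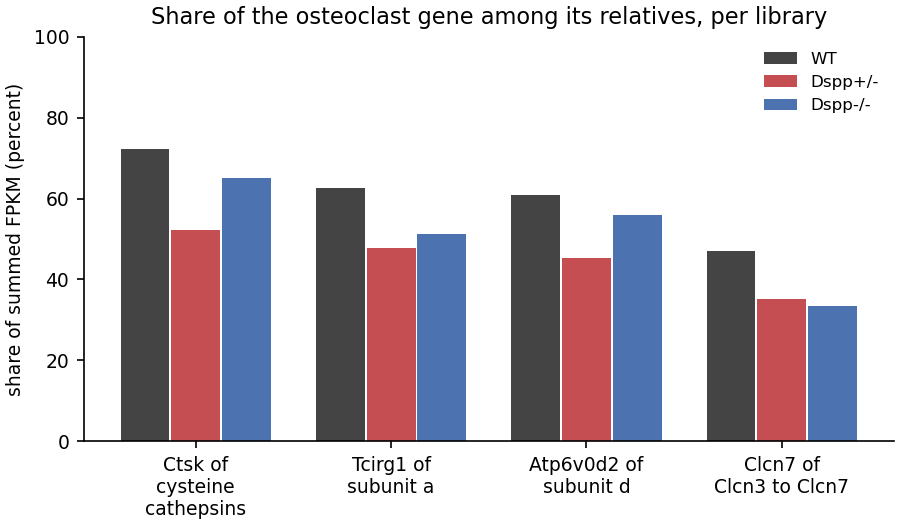
Share in percent of the summed FPKM of a family held by its resorption gene, for cysteine cathepsins, V-ATPase subunit a, subunit d and *Clcn3* to *Clcn7*, in each of the 3 libraries. The WT bar is the highest in each family, and the *Dspp*+/- bar is the lowest in all but the last, where *Dspp*-/- is lowest at 33.5%.

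The rest of the resorption pathway was described by lists. The median log2 ratio of *Dspp*+/- to WT was lowest for matrix proteases and their inhibitors and for osteoclast identity genes, and nearer to 0 for other pump subunits, lysosomal hydrolases and partners of acid secretion. Of 16 other V-ATPase subunits averaging 1 FPKM or more, 14 were below WT in *Dspp*+/- and 2 above, none 2-fold, with a median log2 ratio of -0.39. In *Dspp*-/- the median was -0.15, with 12 below. *Atp6v1g1*, a subunit of the stalk, had the lowest ratio in *Dspp*+/- at -0.66, with 93.2 FPKM (WT), 58.8 (*Dspp*+/-) and 60.7 (*Dspp*-/-). *Atp6ap1*, an accessory subunit, was 79.8, 61.1 and 72.3 FPKM. The highest ratio was that of *Atp6v0a1*, at 0.48.

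Of 17 other cathepsins and lysosomal hydrolases, 13 were below WT in *Dspp*+/- and 13 in *Dspp*-/-, none 2-fold, with medians of -0.35 and -0.26. *Lgmn*, an asparaginyl protease, had the lowest ratio in *Dspp*+/-, from 61.4 FPKM in WT to 31.4, and was 45.5 in *Dspp*-/-. *Ctss*, a cathepsin of antigen-presenting cells, had the highest, at 17.9, 35.8 and 30.2 FPKM. Of the most abundant, *Hexa*, which degrades gangliosides, was 178, 99.5 and 108 FPKM, and *Ctsd*, an aspartic protease, 176, 213 and 163. The 4 other intracellular CLC genes had a median of 0.04 in both comparisons to WT. *Clcn3* had the highest ratio to WT, with 2.47 FPKM for WT, 4.30 for *Dspp*+/- and 3.72 for *Dspp*-/-, and *Clcn6* was 3.06, 3.16 and 2.78.

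The partners that feed and build the acid compartment were split. Of 12 compared, 6 were below WT and 6 above in *Dspp*+/-, with a median of -0.07, and 3 were below and 9 above in *Dspp*-/-, with a median of 0.07. *Car2* and *Rab27a* were at least 2-fold higher in both, which is 2 of 12, against 4.88% of all genes in *Dspp*+/- and 4.05% in *Dspp*-/-. *Rab27a*, a GTPase of lysosome-related organelles, was 2.33, 6.21 and 6.001 FPKM and is named after its values were seen. *Slc4a2*, the bicarbonate and chloride exchanger of the opposite membrane, had the lowest ratio, at 13.8 FPKM in WT, as against 6.81 in *Dspp*+/- and 8.14 in *Dspp*-/-. *Cd63*, a membrane protein of late endosomes, was 84.5, 47.4 and 63.3 FPKM, while *Lamp1*, a membrane protein of all lysosomes, was 180, 183 and 181.

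*Car2* encodes carbonic anhydrase II, which supplies the protons for the pump and is also abundant in red blood cells and their precursors. It stood at 9.83 FPKM (WT), 65.4 (*Dspp*+/-) and 49.4 (*Dspp*-/-), a fold of 6.65 (6.05 to 7.33) and 5.03 (4.56 to 5.55), the highest of its list. All 10 of 10 erythroid markers were at least 2-fold higher in both knockout libraries, against 4.88% and 4.05% of all genes, none was at 0, and their summed level was 905, 3785 and 3662 FPKM. The part of erythroid RNA in the *Car2* values was not tested.

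Among 9 other matrix proteases and inhibitors, 5 were at least 2-fold lower and 1 at least 2-fold higher in *Dspp*+/- than in WT, against 2.86% and 4.88% of all genes, with a median of -1.15. The 5 were *Timp1*, *Mmp13*, *Mmp14*, *Cstb* and *Mmp2*, of which the last 3 are named after their values were seen. In *Dspp*-/- 0 were lower and the same 1 was higher, against 1.37% and 4.05% of all genes, with a median of -0.54. *Timp1*, an inhibitor of metalloproteinases, had the lowest ratio, at 57.4 FPKM for WT, 19.6 for *Dspp*+/- and 33.6 for *Dspp*-/-, so that *Mmp9* per *Timp1* was 9.61, 12.1 and 11.0. *Mmp13*, the collagenase of hypertrophic chondrocytes and osteoblasts, was 649, 240 and 487 FPKM, and *Cst3*, a secreted inhibitor of cysteine cathepsins, 963, 555 and 599. The gene that was higher was *Mmp8*, the neutrophil collagenase and 1 of the 12 neutrophil markers, at 10.04, 39.8 and 67.6 FPKM.

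**Figure D4:**
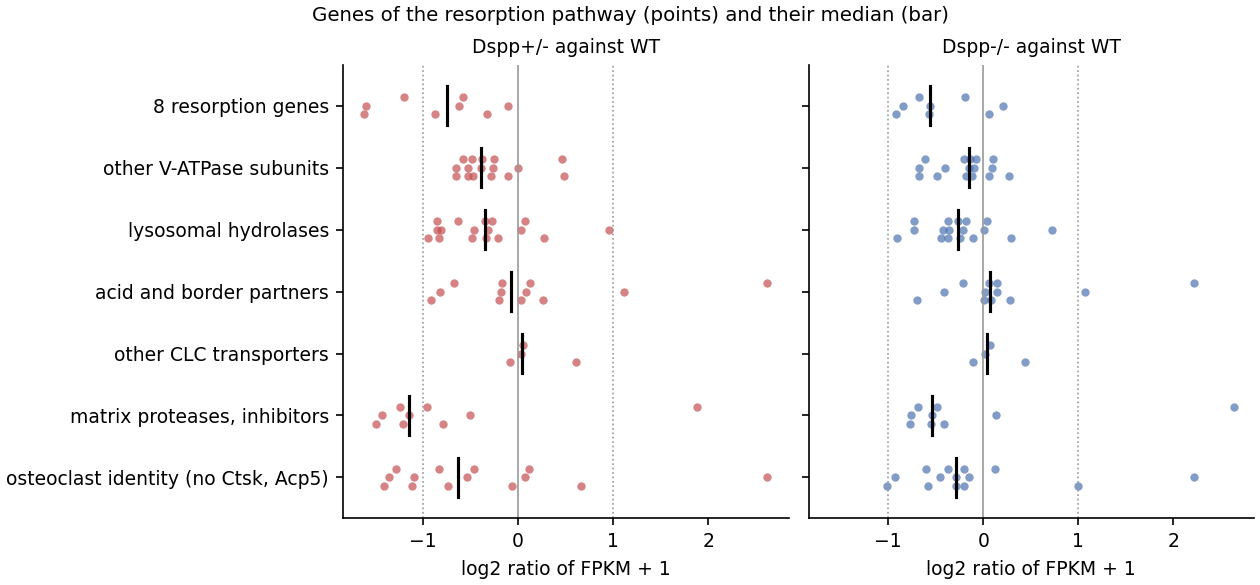
Log2 ratio of FPKM + 1 to WT of the 8 resorption genes and of the listed pathway genes averaging 1 FPKM or more, in *Dspp*+/- (left) and *Dspp*-/- (right). Each point is a gene, black bars are medians and dotted lines mark 2-fold. The medians of the resorption genes are -0.75 and -0.57, those of the matrix proteases and inhibitors -1.15 and -0.54, and those of the acid and border partners -0.07 and 0.07.

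Genes of osteoclast identity stood on both sides of WT, most of them below it. Of 14 other than *Ctsk* and *Acp5*, 10 were below WT in *Dspp*+/-, 5 of them at least 2-fold against 2.86% of all genes, with a median of -0.64. The 4 above WT were *Car2*, at least 2-fold higher against 4.88% of all genes, and the transcription factor genes *Fos*, *Mitf* and *Tfeb*, at 1.70, 1.11 and 1.06 of their WT level. In *Dspp*-/- 11 were below, 1 of them at least 2-fold against 1.37% of all genes, with a median of -0.29. The 5 were *Oscar*, *Ocstamp*, *Dcstamp*, *Tnfrsf11a* and *Src*, and the 1 in *Dspp*-/- was *Ocstamp*, a gene of osteoclast fusion, at 9.02 FPKM (WT), 2.91 (*Dspp*+/-) and 3.97 (*Dspp*-/-). All but *Oscar* and *Car2*, and *Nfatc1* as well, are named after their values were seen. The lowest ratio in *Dspp*+/- was that of *Oscar*, a receptor that costimulates osteoclast formation, at 18.5 FPKM in WT, as against 6.33 in *Dspp*+/- and 12.1 in *Dspp*-/-. *Itgb3*, the integrin chain by which osteoclasts attach, was the most abundant of them in WT, at 37.8, 25.8 and 30.9 FPKM, and its partner chain *Itgav* was next, at 25.6, 15.0 and 22.2. *Nfatc1*, the transcription factor that drives *Ctsk* and *Acp5*, was 24.5, 17.5 and 21.9 FPKM, and *Ctsk* per *Nfatc1* was 35.3 (WT), 15.9 (*Dspp*+/-) and 21.9 (*Dspp*-/-).

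The summed level of the 8 osteoclast markers, which hold none of the resorption genes, was 120 FPKM for WT, 64.4 for *Dspp*+/- and 87.0 for *Dspp*-/-, a fold of 0.535 and 0.723, and none was at 0. These 8 were all below WT and leave out *Car2*, *Fos*, *Mitf* and *Tfeb*; the sum over all identity genes other than *Ctsk* and *Acp5*, which includes *Car2*, was at 0.965 and 1.04 of WT. The summed resorption genes, mostly the 3 enzymes, were at 0.366 and 0.588. Medians did not stand in that order. For *Dspp*+/- and *Dspp*-/- the median log2 ratio to WT was -1.11 and -0.52 over the 8 markers, as against -0.75 and -0.57 over the 8 resorption genes. The 9 macrophage markers in the table summed to 190, 164 and 164 FPKM, with median log2 ratios of 0.09 and -0.07. They were split. In *Dspp*+/- 5 were above WT and 4 below, with log2 ratios from -0.76 to 0.43. In *Dspp*-/- 4 were above and 5 below, from -0.77 to 0.54. Bone and cartilage markers were lower too. The 10 osteoblast markers summed to 13660, 3654 and 7263 FPKM and all 10 were lower in both knockout libraries, while the 11 chondrocyte markers summed to 1845, 507 and 805. Per unit of *Col1a1*, the type I collagen gene, *Ctsk* was 0.129 in WT, as against 0.162 in *Dspp*+/- and 0.133 in *Dspp*-/-, and *Acp5* was 0.113, 0.144 and 0.111. That holds for *Col1a1* and not for every osteoblast marker. In *Dspp*+/- the folds of the 10 ran from 0.252 for *Col1a2* to 0.558 for *Runx2*, with *Ctsk* at 0.323 and *Acp5* at 0.328 between them. The part of the composition of the dissected tissue in the resorption genes was not tested.

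**Figure D5:**
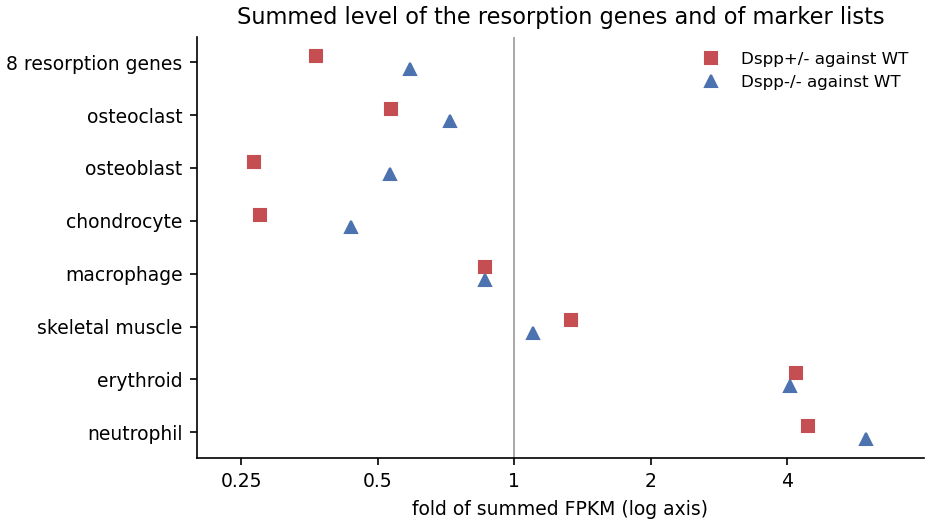
Fold of summed FPKM to WT (log axis) for the 8 resorption genes and for marker lists, in *Dspp*+/- (squares) and *Dspp*-/- (triangles). The resorption genes, at 0.366 and 0.588, lie with the osteoclast, osteoblast and chondrocyte lists below 1, and the neutrophil and erythroid lists lie between 4.05 and 5.96.

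The genes whose pair of log2 ratios to WT was most like the median of the 8, searched in the 4039 genes averaging 10 FPKM or more, were *Man2b2*, *Tm4sf19*, *Boc*, *Chsy1* and *Nt5e*, at distances from 0.015 to 0.040 log2 units. *Man2b2*, which encodes an alpha-mannosidase, was 32.1 FPKM (WT), 18.5 (*Dspp*+/-) and 21.4 (*Dspp*-/-). *Tm4sf19*, a tetraspan membrane protein gene, was 16.0, 9.13 and 10.6 FPKM. *Boc*, *Chsy1* and *Nt5e* encode a Hedgehog co-receptor, a chondroitin synthase and an ectonucleotidase. With 3 libraries the likeness describes these values only.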

How the data were processed

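RNA of mouse mandibular condyles was enriched for poly(A) with a NEBNext kit that does not mark strand and read as paired ends on a NovaSeq by CapitalBio Technology. The authors deposited 1 table with 1 unnamed value per gene and genotype. The labels speak of triplicates and the methods of pooled animals, and each column was taken as 1 library. The submitters' processing notes list FastQC 0.11.5, HISAT2 2.1.0, StringTie 1.3.3b, DESeq 1.28.0 and the human build hg38, with no role given. The genes are mouse genes, and only 563 of 26652 matched identifiers have the same position in GENCODE M21 (GRCm38), so the build of the table is not known.

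The deposited values were read as FPKM because multiplying by merged exon length gave whole multiples of 1 constant per library (within 0.1 fragment) in all 3 libraries for 26197 genes, all 8 members included. The fragments served for 95% Clopper-Pearson intervals, which cover counting error only. Ratios were taken as log2(FPKM + 1), which understates the change of low genes, over genes averaging 1 FPKM or more, and a gene 2-fold apart was counted. Folds and shares in the text are of FPKM itself. Recovery was tested on simulated data. The members and lists were chosen with earlier results of these data known. Besides the 8 members, genes named are the highest and lowest ratio in *Dspp*+/- and the 2 most abundant in WT of each list (for osteoclast identity these include *Ctsk* and *Acp5*, and the next are given too), isoforms in the shares, markers that moved with a member, and the 5 genes most like the members' median. Genes named outside this rule are marked in the text as named after their values were seen. The Kruskal-Wallis test of the study's methods was not used with 1 library per genotype. In all, 9 alternatives were tried. Python 3.11.15, pandas 2.3.3, numpy 2.4.6, scipy 1.17.1 and matplotlib 3.10.9 were used.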

Additional observations from a re-analysis of the deposited data

Results flagged for a closer look

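For 2 of the 8 genes the knockout libraries lay on opposite sides of WT. The log2 ratio of *Ostm1* was -0.11 in *Dspp*+/- and 0.21 in *Dspp*-/-. The log2 ratio of *Atp6v1c1* was -0.33 in *Dspp*+/- and 0.056 in *Dspp*-/-. With 1 library each, the difference between the genotypes was not tested. The counting interval of the fold to WT includes 1 for *Ostm1* in *Dspp*+/- (0.833 to 1.002) and for *Atp6v1c1* in *Dspp*-/- (0.971 to 1.12).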

How the results depend on the processing

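The counts of members at least 2-fold lower were 3, 0 and 0 in the 3 comparisons under pseudocounts of 0.1 and 5, no filter, a mean of at least 5 FPKM, and rescaling by median ratios, without mitochondrially encoded genes, or without hemoglobin, immunoglobulin and muscle genes. A 1.5-fold threshold gave 5 in *Dspp*+/- against WT, 3 in *Dspp*-/- against WT and 4 in *Dspp*+/- against *Dspp*-/-. The median log2 ratio in *Dspp*+/- against WT became -0.67 with a pseudocount of 5 and -0.64 without mitochondrially encoded genes, and that in *Dspp*-/- against WT became -0.46 without them. The last rescaling adds 0.12 and 0.11 to the log2 ratios to WT. Of the values for single genes and shares, 33 moved by more than their counting interval and 102 did not, and no member's direction reversed. As shares of fragments in place of FPKM, *Ctsk* held 28.7% of the cathepsins in *Dspp*+/- against 52.1%, and *Clcn7* 21.9% of its family against 35.1%. No paired analysis was possible because each genotype has 1 library, and no library could be left out. Differences between animals were not measured, and sex, tissue makeup and genotype cannot be told apart.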
